A study of Mus musculus with 20 samples.

Results

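The postsynaptic density is the protein meshwork under the membrane of an excitatory synapse, and 34 genes of its scaffold and signalling machinery were followed here among the 24421 genes counted. The members were named by their symbols, and they were chosen with earlier results of these data known. All 34 were found in each of the 20 libraries and passed the filter on low values in every comparison. The RNA came from neocortex and hippocampus of mice aged 3 months, and 5 libraries were made per genotype in either region. The control mice, labelled wild type, carry floxed alleles of App, Aplp1 and Aplp2 and no Cre, and the cTKO mice, labelled APP/APLP1/APLP2 -/-, carry the same floxed alleles with Camk2a-Cre. All mice, of both sexes, were littermates on a hybrid background of C57BL/6J and 129, and none was treated. Camk2a-Cre is active in excitatory neurons of the forebrain after birth, so glia, interneurons and other cells of a cTKO sample keep the 3 genes, and its promoter is that of Camk2a, which is itself among the 34.

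At an excitatory synapse, the scaffold is built in layers. Proteins of the PSD-95 family lie beneath the membrane and hold glutamate receptors and adhesion molecules, SAPAP proteins link them to the Shank proteins below, and Homer proteins join Shank to metabotropic glutamate receptors and to calcium channels of internal stores. Calcium that enters through NMDA receptors acts through calmodulin on CaMKII, the most abundant kinase of the density, and regulators of small GTPases and actin-binding proteins then set the shape of the spine.

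The labels were checked on the deleted genes. App was at 1501 to 1811 CPM (counts scaled to a common library size, with TMM factors) in control and 331 to 407 in cTKO neocortex, and Aplp1 and Aplp2 were also at less in every cTKO library than in any control of the same region. Total counts were 12169474 to 25331954 per library, and the 34 genes together took 1.86% to 2.41% of them. Markers of neocortex (4 genes) summed to 468 to 551 CPM in control neocortex and 85.5 to 109 in control hippocampus, and those of hippocampal subfields (4 genes) to 51.6 to 59.2 and 288 to 363. In cTKO neocortex the neocortical markers were at 365, 414, 510.1, 442 and 448 CPM in libraries 1 to 5, so that library 3 alone reached the controls, and in cTKO hippocampus the subfield markers reached 335 and overlapped the controls. Interneuron markers (5 genes) summed to 860.4 to 983 CPM in control and 877 to 1169.5 in cTKO neocortex, and to 707 to 885 and 792 to 1001 in the hippocampus, and in either region 4 of 5 cTKO libraries were above every control. The genes of this interneuron sum did not all rise. In cTKO neocortex, Pvalb was below every control in each library except library 3, and Sst overlapped the controls. Several libraries stood apart. Cortical library 5 and hippocampal library 4 of the cTKO group held embryonic globins at a summed 291 and 189 CPM, against at most 1.32 in the other 18, and cTKO library 3 of both regions is described below. The same cortical library 5 held Xist at 1217 CPM together with 4 Y-linked genes at a summed 13.8, where the other 7 libraries with high Xist had at most 0.339 of the latter. Markers of excitatory neurons (5 genes, Slc17a7 the first, with 0 of them at 0) summed to 2079 to 2302 CPM in control and 1964 to 2929.6 in cTKO neocortex, and to 2222 to 2527 and 2487 to 2973 in the hippocampus. Markers of striatal neurons (8 genes, 0 of them at 0) overlapped between the genotypes in the neocortex and did not in the hippocampus, where they summed to 208 to 243 and 302 to 459 CPM, with Drd1 and Penk higher in every cTKO library and the other 6 overlapping. Choroid plexus markers reached 2611 CPM in 1 control hippocampus. The part of these in the results below was not tested beyond the fits without single libraries. In bulk tissue, fewer cells of a type and less RNA per cell cannot be told apart.

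Per length, Nrgn and Camk2a led the 34 genes in both regions. In control neocortex, Nrgn, or neurogranin, which binds calmodulin that is free of calcium, was at 1463 CPM per kb of exon and Camk2a, the α subunit of CaMKII, at 789. Camk2n1, an inhibitor of CaMKII, followed at 363 and Ppp1r9b, or spinophilin, which targets protein phosphatase 1 to actin, at 261. The scaffolds were lower and graded, with Dlgap3 at 109.9, Shank1 at 90.0, Dlg4 (PSD-95) at 80.5, Homer1 at 18.1 and Homer3, the lowest of all 34, at 1.77 CPM per kb. In control hippocampus Nrgn (1085 CPM per kb, lowest to highest library 997 to 1130.1) and Camk2a (1068, 951 to 1129) overlapped, and Camk2d, the δ subunit of CaMKII, was last at 1.74. Neighbours in this order, such as Cnksr2 and Dlgap1 or Kalrn and Shank2, overlap in both regions, and the order depends on the exon length used, since the 10 highest by the union of all exons share 8 members with the 10 highest by the longest transcript in the controls of each region.

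**Figure D1:**
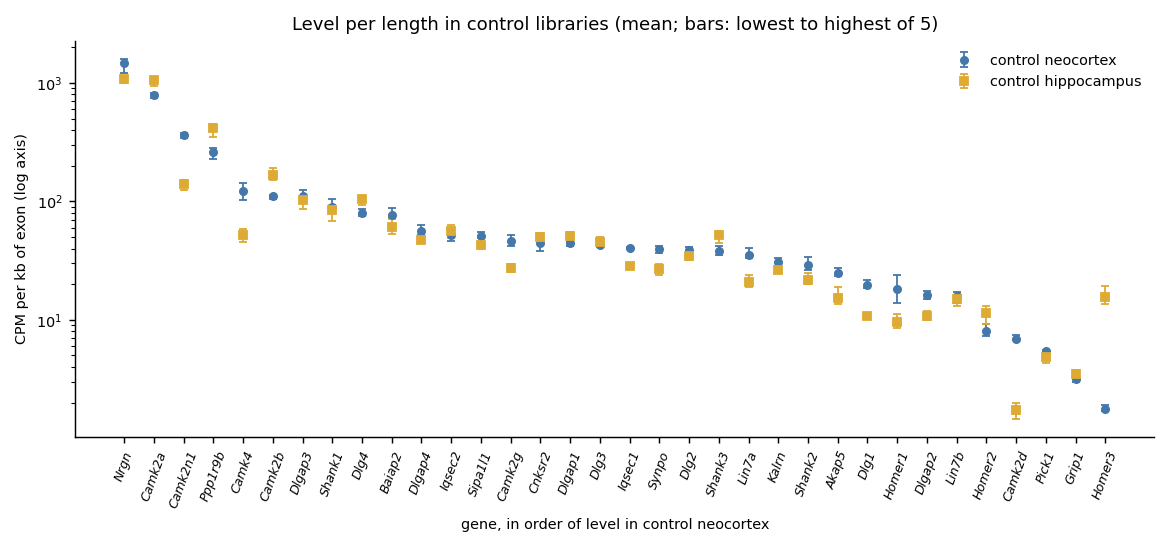
Level of each of the 34 genes in control libraries, in CPM per kb of exon on a log axis, for neocortex (circles) and hippocampus (squares). Points are means of 5 libraries and bars run from the lowest to the highest library. Nrgn and Camk2a lead in both regions, and Homer3 and Camk2d move furthest between them, from 1.77 to 15.7 and from 6.95 to 1.74.

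The first question was whether loss of the APP family in excitatory neurons altered the RNA of the density. In the neocortex, most of the 34 genes were slightly lower in cTKO mice. The log2 difference (cTKO minus control) was negative for 29 of 34, against 46.9% of all genes tested, with a median of -0.126 against 0.00900 over all genes and a range of -0.51 for Homer2 to 0.42 for Homer3. The 34 signs come from the same libraries and are not separate observations. Between libraries of a group, the members' median log2 CPM varied with an SD of 0.0973, pooled over the groups of both regions. By edgeR's quasi-likelihood test, 0 of 34 passed an FDR of 0.05, against 0.188% of all genes, and 13 had an unadjusted p under 0.05 (background 10.4%), of which 12 were lower (background 4.86%) and 1 higher (background 5.57%). The likelihood ratio and exact tests of edgeR each called 4 members, Homer2, Camk4, Dlgap2 and Camk2a, where 1.18% of all genes passed the exact test, and DESeq2 called these and Sipa1l1, where 1.6% passed. All calls were lower in cTKO mice. Counts over all genes by the likelihood ratio test, for this and the later comparisons of genotypes, are given at the end with the other alternatives. In 6 members, Dlgap1, Dlgap2, Homer2, Camk4, Iqsec1 and Sipa1l1, every cTKO library was below every control, which 1.6% of all genes did, and in 0 members were they above every control (background 0.766%).

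In the hippocampus, the signs were more mixed and the sizes similar. They were negative for 23 of 34 (background 48.4%), with a median of -0.0598 against 0.00492 over all genes, and the median absolute difference was 0.132, where it was 0.128 in the neocortex. The quasi-likelihood test called 0 (background 0.489%) and gave 6 members an unadjusted p under 0.05 (background 12%), with 4 lower (background 5.88%) and 2 higher (background 6.13%), and 1 member, Homer2, was called by the exact test (background 1.88%), by the likelihood ratio test and by DESeq2 (background 2.42%). In 0 members did all cTKO libraries lie below (background 1.23%) or above (background 1.9%) the controls. Across the regions, 22 members were negative in both, against 30.8% of the 13469 genes tested in both, and 5 had an unadjusted p under 0.05 in the same direction in both, against 3.19%: Dlgap1, Homer2, Camk2a and Camk2n1, which were lower, and Homer3, which was higher. Both regions came from the same mice by the study's methods, so these are not independent samples.

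**Figure D2:**
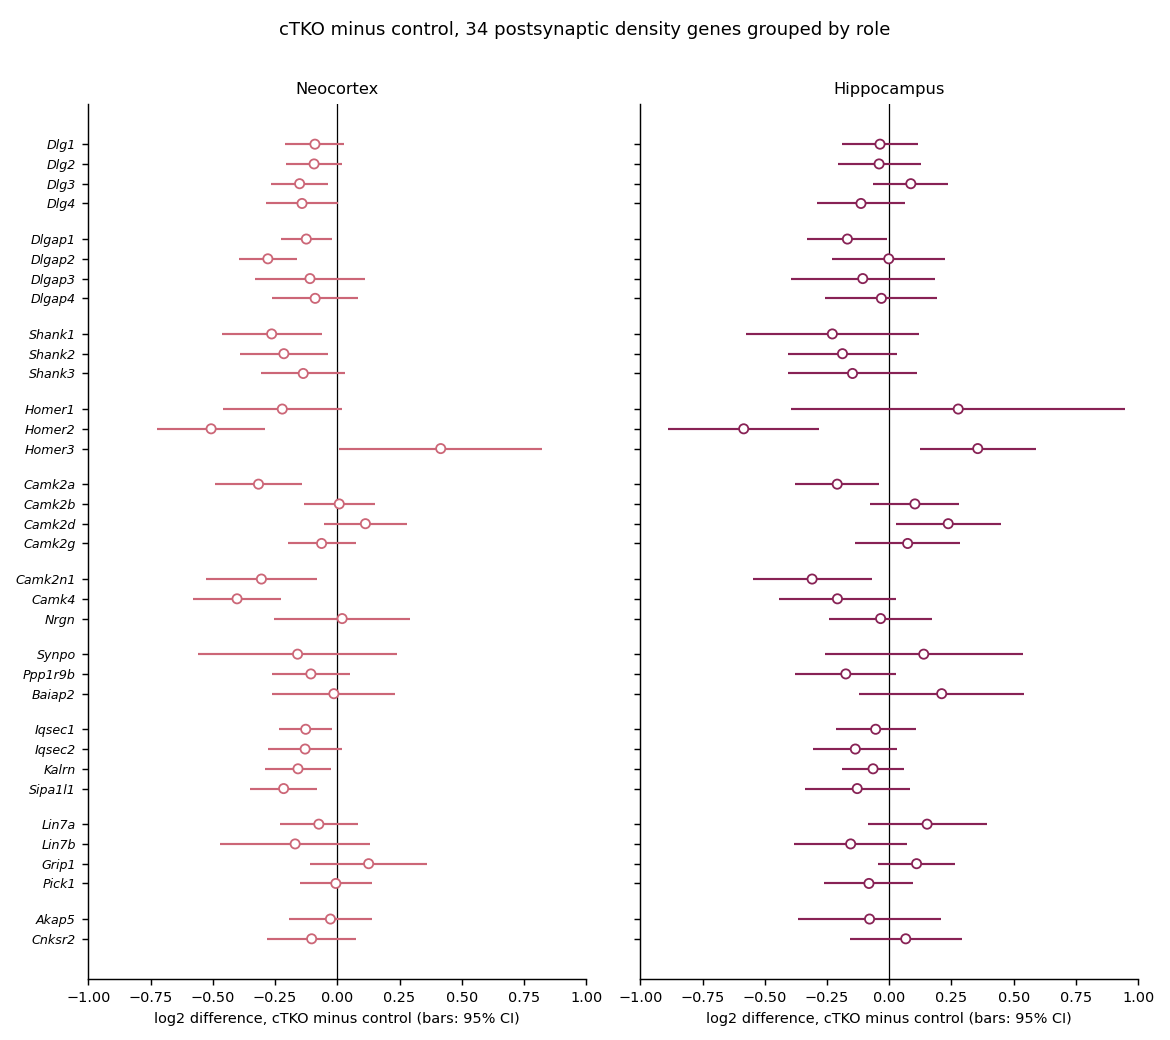
Log2 difference in expression, cTKO minus control, for the 34 genes in neocortex (left) and hippocampus (right), in blocks by role. Points are edgeR estimates from 5 libraries per genotype, bars are 95% confidence intervals, and open points did not pass an FDR of 0.05, which is all of them. Most cortical points lie left of 0, and Homer2 is furthest left and Homer3 furthest right in both panels.

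The Homer family held the lowest and the highest genotype differences among the 34. Homer proteins bind Shank and group I metabotropic glutamate receptors through an EVH1 domain, and the long forms join into clusters through a coiled coil. In GRCm38, Homer1 lies at chr13:93299635-93405129 on the plus strand, Homer2 at chr7:81600481-81707527 on the minus strand and Homer3 at chr8:70282827-70294361 on the plus strand. Sequence before 1 RefSeq start of each (GRCm38.p6, 5′ to 3′ on the gene's strand) is shown because Homer2 and Homer3 lie at the ends of the genotype comparison and Homer1 stood out in cTKO library 3. The stretches, cut so as to hold no annotated exon, are chr13:93303507-93303756 for Homer1, chr7:81706945-81707175 for Homer2 and chr8:70282749-70282826 for Homer3. Capitals mark the core of a cAMP response element (TGACG, or CGTCA on the other strand) in Homer1 and GC boxes (GGGCGG, or CCGCCC) in Homer2.
Homer1: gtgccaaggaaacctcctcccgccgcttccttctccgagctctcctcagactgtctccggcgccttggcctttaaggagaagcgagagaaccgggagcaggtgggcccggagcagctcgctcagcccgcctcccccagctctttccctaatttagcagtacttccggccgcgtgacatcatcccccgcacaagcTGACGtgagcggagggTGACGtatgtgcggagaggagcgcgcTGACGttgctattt
Homer2: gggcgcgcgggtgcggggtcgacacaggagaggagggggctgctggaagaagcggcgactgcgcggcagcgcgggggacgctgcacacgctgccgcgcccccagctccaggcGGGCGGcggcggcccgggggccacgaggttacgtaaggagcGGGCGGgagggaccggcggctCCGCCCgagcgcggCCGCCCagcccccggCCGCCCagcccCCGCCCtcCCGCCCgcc
Homer3: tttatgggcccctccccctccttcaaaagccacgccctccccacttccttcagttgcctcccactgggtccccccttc

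The 250 bases before this Homer1 start held 3 TGACG cores, and as many were found in 0.688% of the 32851 RefSeq windows of that length, of which 17.8% held at least 1. The full window of Homer2, of which 231 bases are shown, held 8 GC boxes, and as many were found in 0.155% of windows, of which 32.7% held at least 1. The full window of Homer3 held 4 GC boxes, and as many were found in 4.09% of windows, with all of them outside the 78 bases shown. A match to a motif is a description of the letters and not a site at which binding was measured. The Homer1 and Homer2 windows counted are those with the most matches. The window before the other Homer1 start held 0 TGACG cores, and that before the other Homer2 start held 0 GC boxes. Of the 34 members, 26 have a window, with 45 windows in all, of which 6 held a TGACG core and 23 a GC box. The full cAMP response element, TGACGTCA, was in 0 of these 45, those of Homer1 included, against 1.55% of all windows.

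Homer2 differed most, with the same direction in both regions. In control neocortex it was at 94.4, 92.4, 99.2, 117 and 101 CPM in libraries 1 to 5, and in cTKO neocortex at 61.7, 76.3, 58.6, 73.4 and 82.6. The groups did not overlap. The means were 101 ± 9.85 and 70.5 ± 10.1 CPM (SD, n = 5), a log2 difference of -0.51 (SE 0.100, 95% interval -0.72 to -0.29), with an FDR of 0.0640 in the quasi-likelihood test and 9.32e-04 in the exact test of edgeR. The exact permutation test of log2 CPM gave p = 0.00794, the smallest that 5 libraries against 5 can give. Control hippocampus was at 117, 127, 158, 153 and 165 CPM and cTKO hippocampus at 90.3, 68.1, 121, 93.0 and 108. Here 1 cTKO library, the third, was above the lowest control. The log2 difference was -0.58 (SE 0.140, interval -0.89 to -0.28, FDR 0.102, exact permutation p = 0.0159). Homer2 is on a list of genes that the study found changed in both regions of these samples, so its direction here is not independent evidence. The study also tested the listed genes by qRT-PCR in other mice. Homer2 is not among the genes that it names as missing significance there. Those measurements were not part of the data used here.

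Homer3 had the opposite direction at much lower levels. It was at 5.86, 6.27, 5.92, 5.80 and 6.53 CPM in control neocortex and at 7.58, 6.61, 8.12, 5.62 and 12.6 in cTKO neocortex, where library 5, 1 of the pair with embryonic globins, was the highest and library 4 was below all controls. In the hippocampus, controls were at 49.3, 51.4, 56.8, 66.7 and 46.5 CPM and cTKO libraries at 83.4, 69.4, 69.8, 62.7 and 61.1, which overlap through control library 4. The log2 difference was 0.42 (0.01 to 0.82, FDR 0.468) in the neocortex, where it was 0.20 without library 5, and 0.36 (0.12 to 0.59, FDR 0.206) in the hippocampus. Homer3 overlaps Ddx49 on the opposite strand, whose reads cannot be told apart where counting ignored strand, and Ddx49 differed by -0.02 and 0.07 (log2) in the same comparisons. Homer1, at 286, 211, 212, 167 and 207 CPM in control and 178, 170.0, 193, 178 and 204 in cTKO neocortex, did not pass in either region (log2 difference -0.22, -0.46 to 0.02, and 0.28, -0.39 to 0.95), and 1 library decides the second value.

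Of the CaMKII genes, Camk2a, which encodes the α subunit, was lower in cTKO mice of both regions, without passing the quasi-likelihood test. CaMKII is a ring of mixed subunits whose α and β forms make up most of the enzyme in forebrain neurons. Camk2a was at 6021, 5524, 5678, 6093 and 6120.3 CPM in control neocortex and 4294, 5015, 5560.1, 3984 and 4658 in cTKO neocortex, so that only cTKO library 3 reached the controls. The log2 difference was -0.32 (SE 0.0819, -0.49 to -0.14), with an FDR of 0.162 by quasi-likelihood, 0.0259 by edgeR's exact test and 0.0262 by quasi-likelihood without library 3. In the hippocampus, controls were at 7096, 8266, 7817, 8259.9 and 8426 CPM and cTKO libraries at 7059, 6509, 7780.3, 5956 and 7184, a log2 difference of -0.21 (-0.38 to -0.04, FDR 0.307), and cTKO libraries 3 and 5 lay above the lowest control. The β subunit gene Camk2b gave log2 differences of 0.01 (-0.13 to 0.15) and 0.10 (-0.08 to 0.28), and the γ subunit gene Camk2g -0.06 and 0.07, in the neocortex and hippocampus. Camk2d was at 44.9, 39.4, 36.3, 33.0 and 41.8 CPM in control and 46.5, 48.9, 49.1, 37.3 and 48.3 in cTKO hippocampus, so that only cTKO library 4, which held embryonic globins, fell below the highest control (0.24, 0.03 to 0.45, FDR 0.357), and its cortical difference was 0.11.

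Within a library, the count of Camk2a over that of Camk2b was 5.80 ± 0.373 in control and 4.67 ± 0.823 in cTKO neocortex, and 5.26 ± 0.356 and 4.28 ± 0.758 in the hippocampus (mean ± SD of 5 ratios of counts, not per length, given without a test). Against its inhibitor gene Camk2n1, the ratio of Camk2a was 3.65 ± 0.169 in control and 3.65 ± 0.247 in cTKO neocortex, and 12.7 ± 0.206 and 13.8 ± 1.75 in the hippocampus. The ratio of kinase to inhibitor overlapped between the genotypes in both regions, and it was over 3 times as large in the hippocampus.

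Camk2n1 and Camk4 belonged with Camk2a among the lower members. For Camk2n1, controls were at 1687, 1615, 1527, 1657 and 1580.3 CPM in the neocortex and cTKO libraries at 1167, 1289, 1712, 1048 and 1280.4, with cTKO library 3 above every control and the other 4 cTKO libraries below every control. Its log2 difference was -0.30 (-0.53 to -0.08, FDR 0.307), or -0.42 with an FDR of 0.0171 without that library. In the hippocampus, Camk2n1 was at 552, 658, 602, 655 and 673 CPM in controls and 639, 424, 511, 421 and 539 in cTKO libraries, of which library 1 lay among the controls (-0.31, -0.55 to -0.07, FDR 0.284). Camk4, a nuclear calmodulin kinase that phosphorylates CREB, separated the cortical groups. It was at 468, 414, 386, 369 and 337 CPM in control and 295, 319, 286, 273 and 312 in cTKO neocortex, a log2 difference of -0.40 (SE 0.0815, -0.58 to -0.23, FDR 0.0712 and 0.00161 by the exact test, exact permutation p = 0.00794). Hippocampal libraries of both genotypes overlapped, at 149 to 189.8 CPM in controls and 111 to 179.8 in cTKO mice (-0.21, -0.44 to 0.03). Nrgn, on the other side of calmodulin signalling, gave 0.02 (-0.25 to 0.29) and -0.03 (-0.24 to 0.17).

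In the PSD-95, SAPAP and Shank families, all 11 genes had a negative cortical difference, and 0 of them passed the quasi-likelihood test. Dlgap2, which encodes a SAPAP protein, had the largest. It was at 107, 95.2, 100.3, 92.5 and 100.3 CPM in control and 77.8, 82.5, 81.2, 85.9 and 78.5 in cTKO neocortex, without overlap. The log2 difference was -0.28 (SE 0.0543, -0.40 to -0.16), with an FDR of 0.0596 by quasi-likelihood and 3.54e-04 by DESeq2 and an exact permutation p of 0.00794. Hippocampal levels were 64.6, 63.6, 61.3, 67.4 and 72.3 CPM in controls and 60.9, 57.0, 86.8, 63.8 and 60.2 in cTKO libraries, of which library 3 was the highest of all 10 (log2 difference -0.00197, -0.23 to 0.22). Dlgap1, which links PSD-95 to Shank in the same way, was at 807, 808, 800.0, 791 and 756 CPM in control and 689, 726, 742, 743 and 713 in cTKO neocortex, again without overlap, with a log2 difference of -0.12 (-0.23 to -0.02, FDR 0.368). The hippocampal libraries were at 839, 889, 886, 922 and 991 and 761, 771, 826, 740.0 and 931 CPM (-0.17, -0.33 to -0.01, FDR 0.390), and only cTKO library 5 exceeded the lowest control.

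In the other scaffold genes the cortical difference ran from -0.26 for Shank1 (-0.46 to -0.06, FDR 0.328) and -0.21 for Shank2 (-0.39 to -0.04, FDR 0.368) to -0.09 for Dlgap4. Dlg4, which encodes PSD-95, was at 1003 to 1137 CPM in control and 871 to 1103 in cTKO neocortex (-0.14, -0.29 to 0.00), and its relative Dlg3 (SAP102) gave -0.15 (-0.27 to -0.04, FDR 0.326). The intervals of Dlg1 (-0.21 to 0.03), Dlg2 (-0.21 to 0.02) and Shank3 (-0.31 to 0.03) included 0. In the hippocampus, Dlg4 (-0.11) and the 3 Shank genes (-0.23, -0.19 and -0.15) were negative with intervals that included 0, and Dlg3 was positive at 0.09 (-0.06 to 0.24). Dlg2, Dlgap4 and Shank1 each overlap a counted gene on the opposite strand, so a part of their reads is uncertain without strand.

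Regulators of small GTPases, which steer actin and receptor traffic in spines, shared the same cortical direction. Sipa1l1 (SPAR), a Rap regulator that binds PSD-95, was at 632, 633, 649, 678 and 702 CPM in control and 503, 559.6, 622, 559 and 578 in cTKO neocortex, without overlap and with cTKO library 3 nearest to the controls. Its log2 difference was -0.22 (SE 0.0626, -0.35 to -0.08), with an FDR of 0.215 by quasi-likelihood and 0.0397 by DESeq2. The hippocampal groups overlapped, at 507, 553, 520.3, 556 and 628 and 416, 452, 571, 511 and 578 CPM (-0.13, -0.34 to 0.08). Iqsec1, an exchange factor for ARF6, was within 461 to 475 CPM in control and 387 to 451 in cTKO neocortex, also without overlap (-0.13, -0.23 to -0.02, FDR 0.391), and Kalrn, an exchange factor for Rac, gave -0.16 (-0.29 to -0.03, FDR 0.382). In the hippocampus, Iqsec1 and Kalrn gave -0.05 and -0.07, and Iqsec2 gave -0.13 and -0.14 in the 2 regions, all with intervals that included 0.

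None of the adaptors and anchors had an unadjusted p under 0.05 between the genotypes in either region. For the PDZ proteins, Lin7a gave -0.07 in the neocortex and 0.15 in the hippocampus, Lin7b -0.17 and -0.16, Grip1 0.13 and 0.11, and Pick1, which binds PKC and AMPA receptors, -0.01 and -0.08. Akap5, which anchors protein kinase A and calcineurin, gave -0.03 (-0.19 to 0.14) and -0.08 (-0.36 to 0.21), and Cnksr2 -0.10 and 0.07. Spinophilin (Ppp1r9b) gave -0.11 and -0.17. The intervals of these 7 genes included 0 in both regions, and the least precise of them, that of Lin7b in the neocortex at -0.47 to 0.13, allows a difference in either direction.

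**Figure D3:**
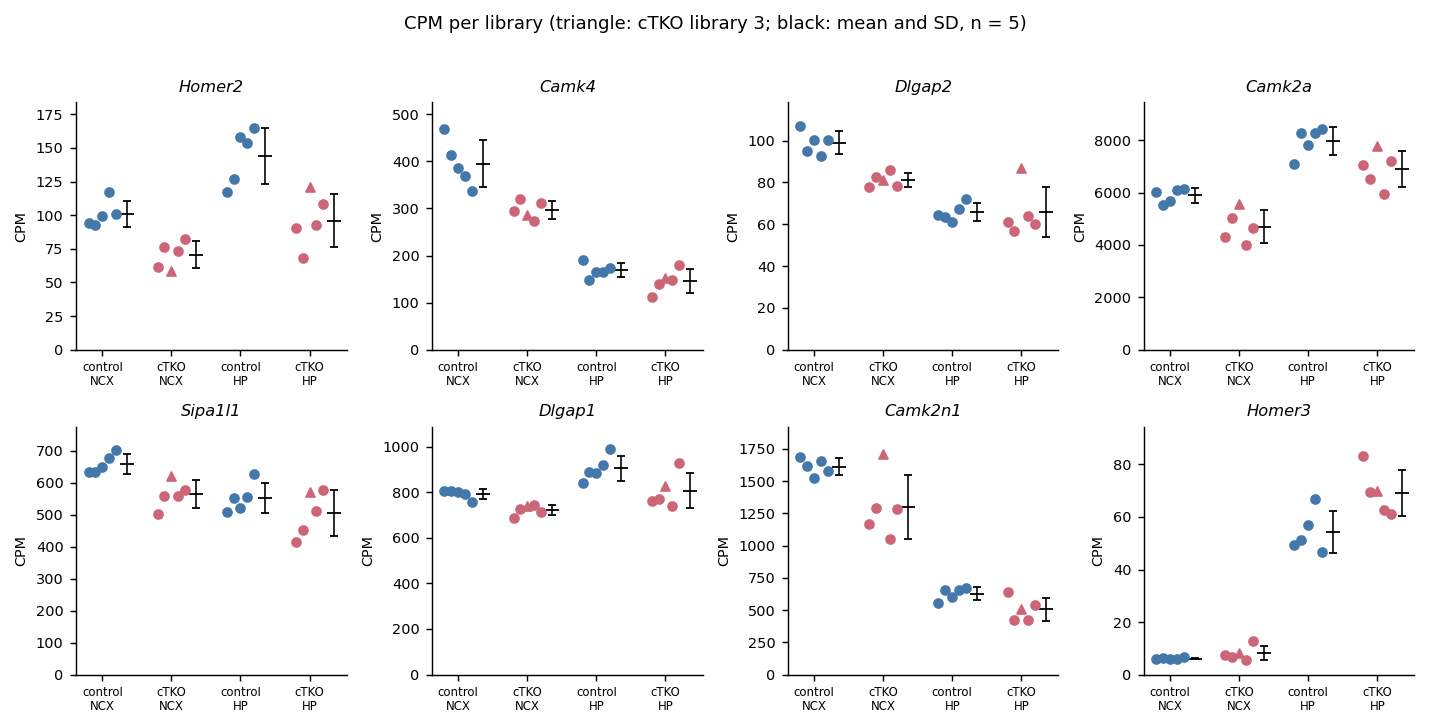
CPM per library of the 8 members named by the rule for genotype differences, by genotype and region (NCX neocortex, HP hippocampus). Circles are libraries, triangles are cTKO library 3, and black bars are mean and SD of 5. In the neocortex, Homer2, Camk4, Dlgap2, Sipa1l1 and Dlgap1 do not overlap between genotypes, and for Camk2a and Camk2n1 only library 3 of the cTKO group reaches the controls.

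cTKO library 3 departed from the rest of its group in a few members of both regions, and these were picked out after their values were seen. Synpo, which encodes synaptopodin of the spine apparatus, was at 397, 347, 369.9, 387 and 383 CPM in control and 229, 283, 571, 278 and 319.5 in cTKO neocortex, and at 257, 262, 227, 252 and 281 and 224, 232, 461, 208 and 284 in the hippocampus. In the cortex, the other 4 cTKO libraries were below every control and library 3 was above every control, and in the hippocampus library 3 was again the highest of all 10. Baiap2 (IRSp53), which couples Rac to actin and binds PSD-95 and Shank, repeated this, with 529 CPM in the cortical library 3 and 522 in the hippocampal one, against 334 to 357 and 278 to 335 in the other cTKO libraries. Homer1 was at 312 CPM in hippocampal library 3, against 92.3 to 107 in the other 4 and 101 to 135 in controls, and at 193 in the cortical library 3, inside the range of its group. Homer1 makes both the long scaffold forms and Homer1a, a short form induced by activity, and counts per gene do not separate them. Genes induced by neuronal activity were high in the same libraries, with Fosb at 179.7 CPM against 23.1 to 35.1 in the other cortical and 107 against 8.56 to 18.0 in the other hippocampal cTKO libraries, and Nptx2 at 414 against 52.9 to 95.9 and 171 against 22.8 to 50.7. Arc was at 349 against 88.0 to 171 CPM in the hippocampus and inside the range of its group in the cortex. Their part in the members' values was not tested.

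**Figure D4:**
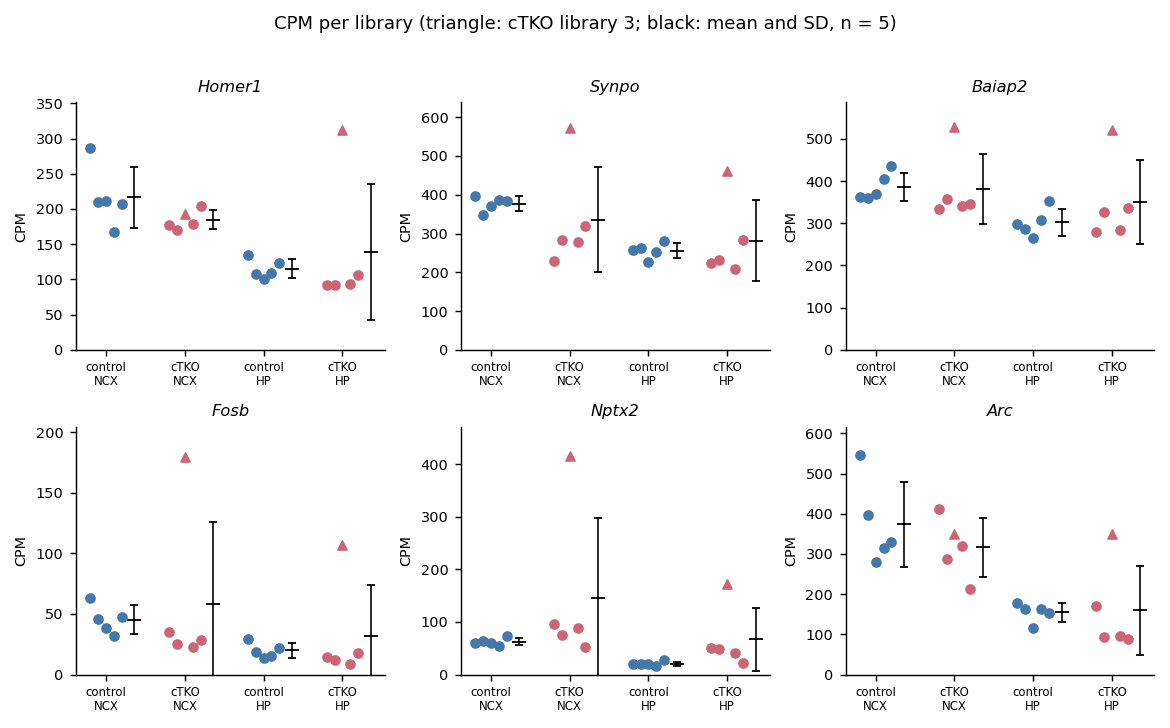
CPM per library of Homer1, Synpo and Baiap2 (top) and of the activity-induced genes Fosb, Nptx2 and Arc (bottom), which are not among the 34. Triangles are cTKO library 3, circles the other libraries, and black bars mean and SD of 5. The triangle is the highest of its region in every panel and region except for Homer1 and Arc in the neocortex.

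The genotype comparison depended on this library, which was singled out after its values were seen. For members in which it was the highest of its group, such as cortical Synpo and Camk2n1, leaving it out lowers the cTKO mean by construction. Without it, the quasi-likelihood test called 5 members in the neocortex, Camk2a, Camk2n1, Dlgap2, Homer2 and Synpo, where 0.87% of all genes passed, and 20 of 34 were lower at an unadjusted p under 0.05 (background 7.29%). The cortical difference of Synpo went from -0.16 (-0.56 to 0.24, FDR 0.825) to -0.43 (FDR 0.0340), and that of Baiap2 from -0.01 to -0.16 (FDR 0.297). In the hippocampus, leaving out library 3 turned Homer1 from 0.28 to -0.26 (FDR 0.276) and Synpo from 0.14 to -0.11 (FDR 0.706), and 0 members were called by quasi-likelihood, where 0.52% of all genes were, with 7 at an unadjusted p under 0.05 (background 11.8%). Without cortical library 5, which held embryonic globins, 3 members were called, Camk4, Dlgap2 and Homer2 (background 0.966%), and without both libraries 3 and 5 there were 7, Camk2a, Camk2n1, Camk4, Dlgap2, Homer2, Sipa1l1 and Synpo, where 2.94% of all genes passed. Over all 34 genes, the median coefficient of variation between libraries was 6.83% in control and 9.12% in cTKO neocortex, and 8.48% and 15.0% in the hippocampus, where it was 11.7% for cTKO mice without library 3. Over all genes it was also higher in cTKO mice, at 8.57% and 11.8% in the neocortex and 8.47% and 12.6% in the hippocampus.

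Whether the genotype difference itself differed between the regions was tested as an interaction over all 20 libraries. It called 0 of 34 members by quasi-likelihood, by the likelihood ratio test and by DESeq2, where 0.0564% of all genes passed the first, and 2 had an unadjusted p under 0.05 (background 3.75%). These were Dlg3, with a difference of differences of 0.25 (0.06 to 0.43, FDR 0.930), and Dlgap2, with 0.28 (0.03 to 0.54). Dlg3 was at 249 ± 7.60 CPM in control and 223 ± 13.7 in cTKO neocortex and at 266 ± 19.6 and 282 ± 19.1 in the hippocampus, and the libraries of the genotypes overlapped in both regions.

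The second question was how the density differs between hippocampus and neocortex, and here many members passed, as did many of all genes. The median absolute log2 difference of members was 0.435 in controls and 0.404 in cTKO mice, against 0.281 and 0.267 over all genes. In control mice, 26 of 34 members passed (background 59.1%), with 8 higher in the hippocampus (background 29.8%) and 18 lower (background 29.2%), and the median log2 difference, hippocampus minus neocortex, was -0.214 against 0.0119 over all genes. Groups did not overlap in 16 members that were lower (background 21.8%) and 7 that were higher (background 22.4%). In cTKO mice, 21 passed (background 41.3%), with 9 higher (background 20.2%) and 12 lower (background 21.1%) and a median of -0.148, and groups did not overlap in 9 that were lower (background 13.7%) and 5 that were higher (background 15.1%). The library numbers pair the control regions, as described under the processing, and the paired fit called 27 members, those above and Iqsec2. Over all genes, the alternatives run for controls, this fit among them, called 7162 to 8682, where the main fit called 8169. Region and genotype comparisons share libraries and are not independent. By the study's methods, neocortical and hippocampal RNA was extracted with different kits, so region and kit cannot be told apart here.

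Homer3 and Camk2d lay at the ends of this comparison. Homer3 rose from 6.08 ± 0.312 CPM in control neocortex to 54.1 ± 7.97 in control hippocampus, a log2 difference of 3.15 (SE 0.104) or 8.88-fold, and by 3.09 in cTKO mice. Ddx49, which overlaps it, differed by -0.04 between the regions of control mice. Camk2d fell from 156 ± 5.99 to 39.1 ± 4.65 CPM (-2.01, SE 0.0720), which left 0.249 of the cortical level, and gave -1.88 in cTKO mice. In both genotypes, every hippocampal library lay outside the cortical ones for both genes.

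Subunits of CaMKII and its regulators went in opposite directions. Camk2b was at 1038, 1026, 1023, 1030.4 and 963 CPM in control neocortex and 1383, 1513, 1492, 1732 and 1474 in control hippocampus, and at 1106, 1078, 1018, 1040.3 and 841 and 1528, 1907, 1469, 1625 and 1626 in cTKO mice, without overlap between regions in either genotype. Camk2b rose by 0.57 (log2) in the hippocampus of controls and 0.67 in that of cTKO mice, and Camk2a by 0.43 and 0.54, each with an FDR of at most 0.00152. Camk2g fell, with log2 differences of -0.75 and -0.61, as did the inhibitor Camk2n1 with -1.37 and -1.38, the nuclear kinase Camk4 with -1.23 and -1.04, and Nrgn with -0.44 and -0.50. Camk2n1 was at 1613 ± 63.0 CPM in control neocortex and 628 ± 50.4 in control hippocampus, while Camk2a was at 5887 ± 269 and 7973 ± 539.9. All of these passed an FDR of 0.05 in both genotypes.

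The scaffold split within each family. Dlg1 (SAP97), a relative of PSD-95, was at 231, 214, 208, 199.9 and 206 CPM in control neocortex and 121, 112, 109, 118 and 119 in control hippocampus, and at 189.7, 199, 189.6, 211 and 201 and 107, 99.8, 129, 110.1 and 118 in those of cTKO mice. Shank3 was at 346, 323, 329, 386 and 372 CPM in control neocortex and 408, 516, 480.4, 520.4 and 484 in control hippocampus, and at 306, 345, 365, 299.7 and 272 and 531, 333, 503, 388 and 419 in cTKO mice. The control regions did not overlap for either gene, and the cTKO regions overlapped for Shank3 and not for Dlg1. Of the PSD-95 genes, Dlg1 fell in controls (-0.88) and Dlg4 rose by 0.39, and in cTKO mice the values were -0.83 and 0.41. Dlg2 fell slightly in controls (-0.18, FDR 0.0103) and did not pass in cTKO mice (-0.13), whereas Dlg3 passed in cTKO mice (0.32, FDR 0.00248) and not in controls (0.09), a difference between genotypes that the interaction above did not call. Of the SAPAP genes, Dlgap2 fell in both genotypes (-0.60 and -0.32), Dlgap4 fell (-0.27) and Dlgap1 rose (0.19) in controls, with unpassed values of -0.21 and 0.14 in cTKO mice, and Dlgap3 did not pass (-0.12 and -0.12). Shank2 fell (-0.42 and -0.40) and Shank3 rose (0.45 and 0.44) in both genotypes, and Shank1 did not pass (-0.09 and -0.06). Homer1 fell in controls (-0.92) and Homer2 rose by 0.51, and in cTKO mice Homer2 rose by 0.43 while Homer1 did not pass (-0.42, FDR 0.299), or gave -0.94 with an FDR of 1.65e-05 without library 3 of both regions.

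Of the spine, GTPase, adaptor and anchor genes that passed in controls, all but spinophilin were lower in the hippocampus. Ppp1r9b rose from 1326 ± 117 to 2097 ± 216 CPM in controls (0.65) and gave 0.58 in cTKO mice. Synpo (-0.56), Baiap2 (-0.36), Sipa1l1 (-0.26) and Kalrn (-0.24) fell in controls and did not pass in cTKO mice, at -0.27, -0.14, -0.18 and -0.15. Akap5, which anchors kinases, was at 138, 182, 184, 156 and 161 CPM in cTKO neocortex and 69.6, 93.0, 118, 102 and 108 in cTKO hippocampus. Iqsec1 (-0.52 and -0.45), the adaptor Lin7a (-0.78 and -0.55) and Akap5 (-0.70 and -0.76) fell in both. Iqsec2, Lin7b and Grip1 did not pass in either genotype, with 0.12, -0.09 and 0.12 in controls. Pick1 and Cnksr2 passed in cTKO mice (-0.24 and 0.31, FDR 0.0319 and 0.0352), with -0.16 and 0.14 in controls, and both calls were lost on leaving out cTKO library 3 of the neocortex or any 1 of cTKO libraries 3 to 5 of the hippocampus (FDR 0.0715 and 0.0769 without hippocampal library 3).

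**Figure D5:**
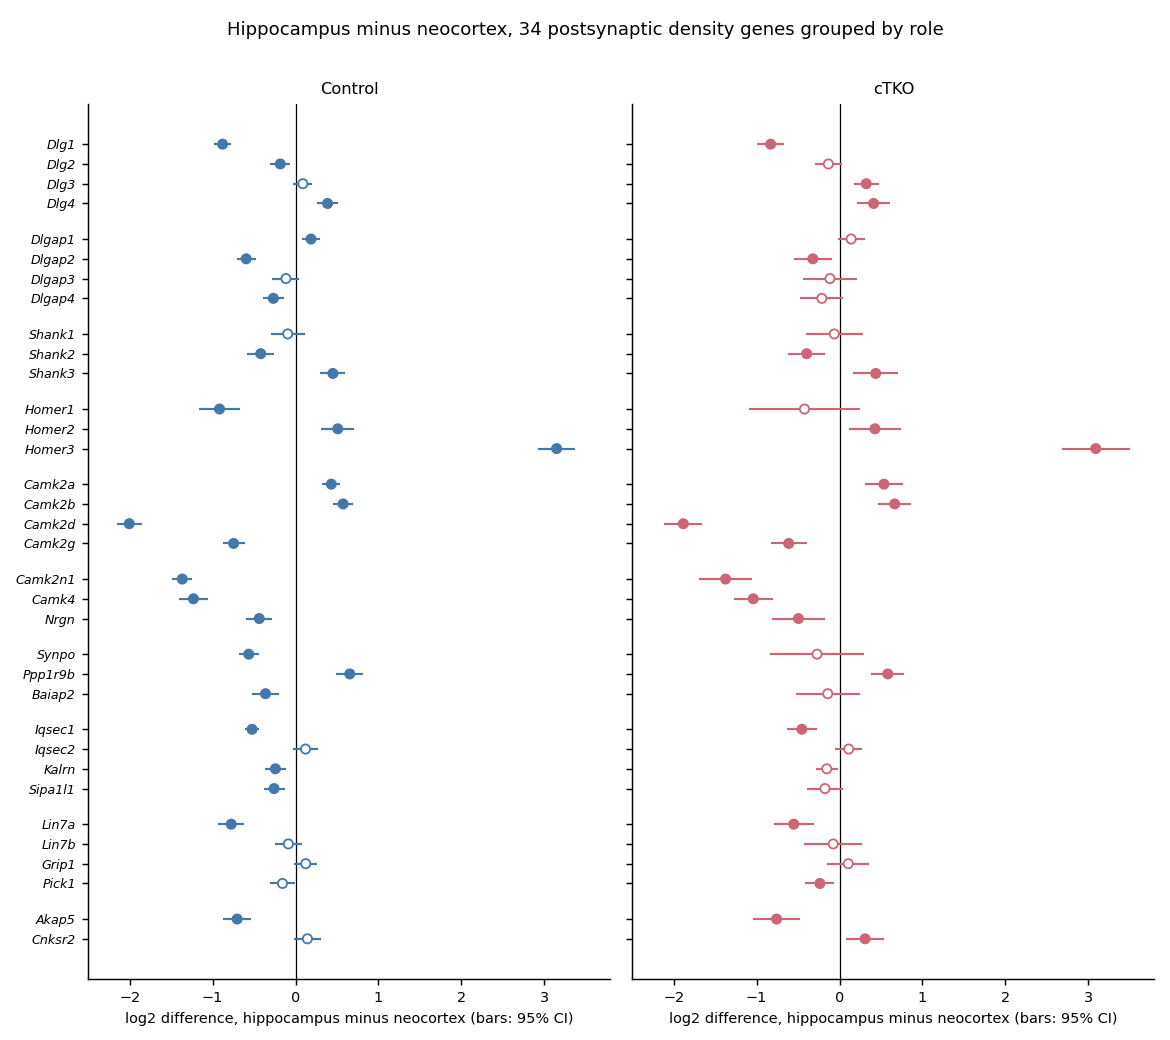
Log2 difference, hippocampus minus neocortex, for the 34 genes in control (left) and cTKO mice (right), in blocks by role. Points are edgeR estimates from 5 libraries per region, bars are 95% confidence intervals, and filled points passed an FDR of 0.05 (26 in controls, 21 in cTKO mice). Homer3 is furthest right and Camk2d furthest left in both panels.

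A wider list of 64 other genes of the density was set beside the 34. In the neocortex, 0 of 64 passed the quasi-likelihood test between genotypes (background 0.188%), with 18 at an unadjusted p under 0.05 (background 10.4%), of which 15 were lower and 3 higher. The exact test called 1 (background 1.18%), the likelihood ratio test 2 and DESeq2 5 (background 1.6%). Median differences were -0.0534 and -0.0294 in neocortex and hippocampus. The hippocampal comparison called 1 (background 0.489%), Camkk2, the kinase that activates Camk1 and Camk4. Camkk2 was at 126, 121, 121, 131 and 137 CPM in control and 79.8, 85.5, 106, 81.0 and 107 in cTKO hippocampus, without overlap, a log2 difference of -0.47 (-0.67 to -0.28, FDR 0.0423). In the neocortex it was at 324, 299, 318, 314 and 312 and 209, 257, 318, 205 and 263 CPM (-0.32, FDR 0.282), where cTKO library 3 alone reached the controls. Between regions, 57 of 64 passed in controls (background 59.1%), 34 higher and 23 lower in the hippocampus, and 44 in cTKO mice (background 41.3%), 27 higher and 17 lower.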

How the data were processed

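Poly-A RNA of 20 mouse samples was read as 100-base single ends. The study extracted RNA of neocortex with the RNeasy Plus Universal Kit and that of hippocampus with the RNeasy Plus Mini kit. Per the labels and the methods of the study, the authors aligned reads to mm10 with STAR 2.5.4a and counted them per gene with HTSeq, and the deposited files hold raw counts per gene symbol. The strand setting, annotation and HTSeq version are not given in the sources used here. Total counts ran from 12169474 to 25331954, so that a count of 3 corresponds to 0.118 to 0.247 CPM, which covers counting error only.

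Groups came from the labels of tissue and genotype. Counts were scaled by TMM (factors 0.957 to 1.05) and fitted in edgeR 4.0.16 (R 4.3.3) by quasi-likelihood over genes with CPM above 1 in at least 5 libraries of the comparison, with Benjamini-Hochberg adjustment over all genes tested and an FDR threshold of 0.05. CPM printed here are scaled by TMM. An exact permutation test of log2 CPM (prior count 2, two-sided, 252 splits) was added for single genes. Alternatives were edgeR's exact and likelihood ratio tests, DESeq2 1.42.0, DESeq2 size factors, other filters, 1 fit of all libraries, a replicate block, Xist as a covariate and leaving out libraries. The scripts were tested on simulated data. Nothing says whether libraries of a group were prepared apart beyond coming from different mice, and p-values measure the spread between them.

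The methods state that both regions were taken from 5 mice per genotype, and labels number the libraries. Between control regions, same-numbered libraries deviated together from their group means (r 0.173 to 0.437 over the 2000 most variable genes), and all 5 matched their own number best, so the numbers were taken to pair them there. Between cTKO regions, numbers 1 to 3 did so (r 0.426 to 0.530) and numbers 4 and 5 did not (r -0.0378 and -0.0459), so cTKO libraries were not paired. The embryonic globins were in cortical library 5 and hippocampal library 4. For 10 of 10 numbers, over both genotypes, Xist was high in both regions or low in both. This cannot tell mice of the same sex apart. Whether a number marks the same mouse in both regions is not stated in the sources used here.

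Exon lengths and positions came from GENCODE M21 on GRCm38, and sequence before start sites from RefSeq on GRCm38.p6. Members and lists were chosen with earlier results of these data known. Values of every library are given for members with an FDR under 0.05 between genotypes by any of the 4 tests, or an unadjusted p under 0.05 and 1 sign in both regions, and for a few others named as chosen for their values.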

Additional observations from a re-analysis of the deposited data

Results flagged for a closer look

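Of 136 groups of 5 libraries, 1 for each of the 34 genes in each genotype and region, 9 held a library that was far from the other 4 (gap to the nearest over the range above 0.71). Chance flags about 1 group in 20. Of these, 5 were cTKO library 3, and it was the highest each time. In the hippocampus it was at 312 CPM for Homer1, where the next library was at 107, at 522 for Baiap2, where the next was at 335, and at 86.8 for Dlgap2, where the next was at 63.8. In the neocortex it was at 571 for Synpo, where the next was at 319.5, and at 529 for Baiap2, where the next was at 357.

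The other 4 were low libraries, each of a different library. Dlg4 was at 1233 CPM in control hippocampal library 1, below 1412 in the next. Camk2b was at 963 in control cortical library 5, below 1023 in the next. Camk2d was at 37.3 in cTKO hippocampal library 4, which held embryonic globins, below 46.5 in the next. Lin7b was at 20.1 in control cortical library 2, below 23.6 in the next.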

How the results depend on the processing

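The region contrasts kept their counts of members within 1.5 times the main count under every alternative run (26 to 28 in control and 17 to 21 in cTKO mice on leaving out libraries). The genotype counts moved. In the neocortex, where quasi-likelihood called 0 of 34, the exact and likelihood ratio tests called 4 each, DESeq2 5, no filter on low counts 1, and leaving out libraries 0 to 7. The highest value, 7, came without cTKO libraries 3 and 5, an alternative chosen after seeing the data. Over all genes the count of 26 became 163, 167 and 221 with these tests, 42 with no filter, 17 in 1 fit of all 20 libraries, and 7 to 402 on leaving out libraries. In the hippocampus, 1 member, Homer2, was called in place of 0 by the exact test, the likelihood ratio test, DESeq2 and the fit of all 20 libraries, and 0 to 0 on leaving out libraries. Over all genes 67 became 257, 259, 331 and 195 in these, and 15 to 149 on leaving out libraries. For the interaction, 8 genes became 26 with the likelihood ratio test and 26 with DESeq2, and 5 to 20 on leaving out libraries. The cause was not tested. With the longest transcript as length, Camk2a in control neocortex was at 1185 CPM per kb.

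Only some of the members were followed individually on leaving out libraries. Among these, 4 near-zero or unsettled genotype differences changed sign: Baiap2 in the neocortex (-0.17 to 0.0287), and in the hippocampus Dlgap2 (-0.15 to 0.0450), Synpo (-0.11 to 0.22) and Homer1 (-0.26 to 0.39). The remaining members were not checked for a change of sign.

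With the replicate number as a block, members called were 0 in the neocortex and 1 (Homer2) in the hippocampus, and over all genes 12, 58 and 18 were called in the neocortex, the hippocampus and the interaction. By their labels, same-numbered libraries of the genotypes share only a number. Over the most variable genes, their deviations correlated at -0.0474 to 0.311 in the neocortex and -0.177 to 0.229 in the hippocampus. There, 2 and 1 of 5 matched their own number best. Over all genes tested, 4 and 1 of 5 did so, with r -0.00912 to 0.221 in the neocortex and -0.137 to 0.140 in the hippocampus. Whether cortical libraries of equal number share a step of preparation was not tested.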
